A study of Mus musculus with 16 samples.

Results

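Transcripts of 9 genes whose proteins package, store or activate messenger RNA in male germ cells were followed through 16 RNA-seq libraries of mouse testis. The genes were chosen by name: the Y-box genes Ybx1, Ybx2 and Ybx3, the DAZ-family genes Dazl and Boll, the polyadenylation regulator Cpeb1, the poly(A)-binding protein genes Pabpc1 and Pabpc2, and Elavl1, which encodes the RNA-binding protein HuR. All 9 were found among the 35920 genes of the table, and all 9 were among the 9526 genes that reached a normalised read count of at least 10 in at least 2 of the 16 libraries. Testis RNA was incubated with J2, a monoclonal antibody that binds long double-stranded RNA. Libraries were made of the bound RNA (the J2 fraction) and the unbound RNA (the flow-through, from which ribosomal RNA had also been removed according to the labels).

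The libraries form 6 groups. Wild-type testis and Dicer knock-out testis (genotype Dcr-/-), both at postnatal day 18 (P18) and of strain C57BL/6 x 129S4/SvJae, gave 3 flow-through and 3 J2 libraries each. Wild-type adult testis of a strain labelled unknown gave 2 of each, so that age and strain cannot be told apart. The Cre driver or other means by which Dicer was removed, and hence the cells that lacked it, are not given in the sources used here. Nothing in the labels says that libraries of a group came from separate animals, so p-values reflect only how much these samples vary, and that variation may be technical. Library totals corresponded to about 0.998 to 5.87 M reads in the flow-through and 1.23 to 4.54 M in J2 (M, 1e6). Normalised counts totalled 6.05 to 34.9 M units per flow-through library but 0.446 to 0.824 M in J2, and 1 read was worth about 2 to 8.31 units in the flow-through against 0.116 to 0.516 in J2. A value of 10 therefore rests on fewer reads in the flow-through. The worth of 1 read was taken from a value shared by several genes and its multiples. Flow-through libraries gave 1 to 3 multiples each, against 11 to 20 in J2. Wild-type flow-through replicates 1 and 3 gave only 1, the value itself, so their read numbers are rough. Dicer1, the targeted gene, stood at 0 to 13.7 in the 16 libraries and was listed at 0 in at least 1 library of every group, so it was too low to check the genotype. Of the 8 spermatid markers, the summed values were 0 to 16.2 in the P18 libraries and 1013 to 2307 in the adult ones. Spermatocyte markers were present throughout, at summed values of 367 to 1587, and Sertoli cell markers at 102 to 870, with the Sertoli gene Amh listed at 0 in every library of 4 groups.

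Germ cells make many mRNAs long before they translate them, because transcription stops as the spermatid nucleus condenses. Y-box proteins coat such mRNAs and hold them in untranslated particles, poly(A)-binding proteins join the tail to the translation machinery, DAZ-family proteins bind the 3′ end and recruit poly(A)-binding proteins, and CPEB1 controls tail length in the cytoplasm. HuR binds AU-rich sequences and affects the stability and translation of its targets. YBX2, also called MSY2, is the germ-cell member of its family and is needed for spermatogenesis. DAZL acts in early germ cells and meiosis, and BOLL at later stages.

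The Y-box proteins are named after the Y box, an inverted CCAAT sequence in promoters, so the promoters of the Y-box genes themselves are shown. Each run below holds the 250 bases before an annotated start site, 5′ to 3′ on the strand of the gene, from RefSeq on GRCm38.p6. Capitals mark CCAAT or its reverse complement ATTGG. The windows are chr4:119294514-119294763 on the minus strand for Ybx1, chr11:69935649-69935898 on the plus strand for Ybx2, and chr6:131388451-131388700 on the minus strand for Ybx3.
Ybx1: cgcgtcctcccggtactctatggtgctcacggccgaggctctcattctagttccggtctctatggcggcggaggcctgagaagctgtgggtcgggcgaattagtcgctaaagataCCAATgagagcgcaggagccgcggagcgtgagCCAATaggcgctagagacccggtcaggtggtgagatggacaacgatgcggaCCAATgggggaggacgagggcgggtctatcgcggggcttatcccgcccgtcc
Ybx2: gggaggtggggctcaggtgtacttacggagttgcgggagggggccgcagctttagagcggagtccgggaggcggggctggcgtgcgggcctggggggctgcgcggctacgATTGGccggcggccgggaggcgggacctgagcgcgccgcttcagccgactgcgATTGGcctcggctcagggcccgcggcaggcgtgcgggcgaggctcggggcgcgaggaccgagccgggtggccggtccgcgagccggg
Ybx3: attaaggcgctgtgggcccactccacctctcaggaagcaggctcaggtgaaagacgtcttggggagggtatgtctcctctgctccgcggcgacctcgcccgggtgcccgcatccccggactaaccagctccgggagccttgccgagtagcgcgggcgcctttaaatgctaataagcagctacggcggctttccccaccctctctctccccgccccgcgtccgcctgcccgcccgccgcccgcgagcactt
Ybx1 held 3 CCAAT matches, which begin 135, 103 and 52 bases before the start site. Ybx2 held 2 ATTGG matches, 140 and 87 bases before the first of its annotated start sites, and the window before its second start site (chr11:69936078-69936327) held 0. The Ybx1 window and the last part of the first Ybx2 window lie inside the gene spans given further on, which begin at other start sites. Ybx3 held 0 matches to these letters in this window. Among 32851 annotated windows of the same length, 33.8% held at least 1 match on either strand, 10.1% at least 2 and 2.8% at least 3. The GC content of the windows was 62.8% for Ybx1, 77.2% for Ybx2 and 67.2% for Ybx3, against a median of 52.4% over all windows.

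Of the 9 genes, 0 passed the test in any of the 9 comparisons, and at an unadjusted p under 0.05 each comparison gave 0 or 1 of them. The test was limma on log2(value + 1), with Benjamini-Hochberg adjustment over all genes tested and a threshold of 0.05. Where fold changes are given they are differences of mean log2(value + 1), which understates the change of low genes. Gene positions are RefSeq's on GRCm38.p6. These whole-testis libraries cannot tell fewer cells of a type from less RNA per cell. The steadiest of the genes within groups were Ybx2, Ybx1, Pabpc1 and Pabpc2, with pooled within-group SDs of 0.67, 0.71, 0.77 and 0.77 on the log2 scale, against a median of 1.56 over the genes that passed the filter. Ybx3 (SD 1.04), Elavl1 (1.33) and Boll (1.40) also lay below that median, and Dazl (1.73) and Cpeb1 (2.28) above it. The value of Dazl came largely from its adult J2 libraries. Ybx1, Ybx2, Pabpc1 and Pabpc2 were never below 20.8, whereas the filter admits genes near the floor. Their SDs were not compared with those of genes of like level.

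**Figure D1:**
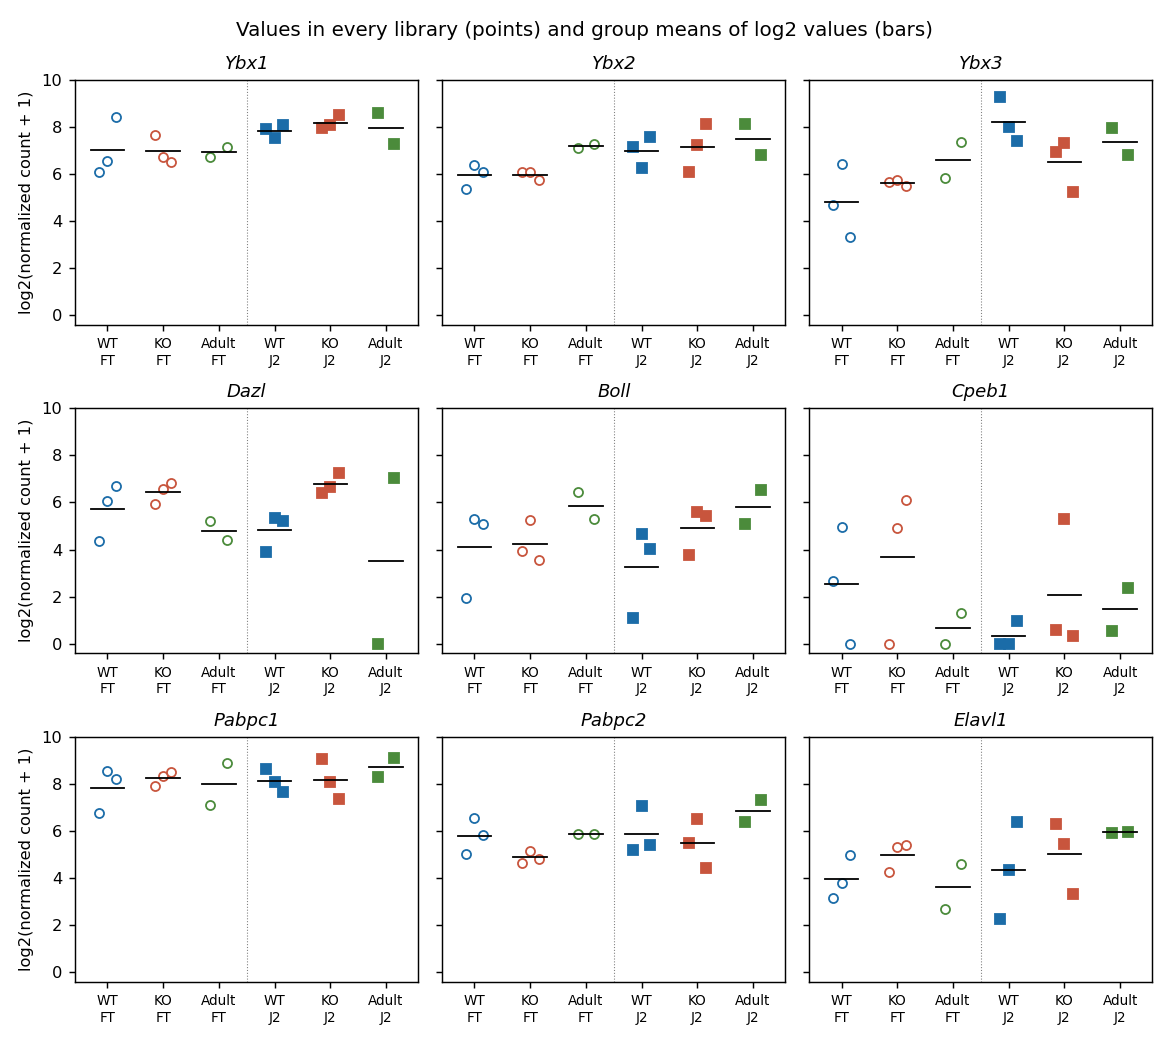
Each point is 1 library, with log2(normalised count + 1) on the vertical axis and the 6 groups along the horizontal axis (FT, flow-through, open circles; J2, filled squares; WT and KO, wild type and Dicer knock-out at P18); bars are group means of the log2 values. Ybx1, Ybx2, Pabpc1 and Pabpc2 stay at counts of 20.8 or above in every library, Ybx3 is high in the 3 wild-type J2 libraries, and Cpeb1 is at or near 0 in most libraries.

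Ybx1 (ENSMUSG00000028639, chr4:119277327-119296265), the Y-box gene that is also used widely outside germ cells, was measured in every library. Its normalised counts were 66.5, 93.7 and 342 in wild-type flow-through, 201, 104 and 89.7 in knock-out flow-through and 105 and 142 in adult flow-through. In J2 they were 240, 182 and 268 in wild type, 244, 266 and 357 in the knock-out and 387 and 155 in the adult. The J2 values lay above the flow-through values without overlap in the knock-out and the adult, and 1 wild-type flow-through library (342) exceeded all wild-type J2 libraries. The log2 difference, J2 minus flow-through, was 0.81 ± 0.66 (SE) in wild type (limma adjusted p = 0.613). Its 95% confidence interval was -0.18 to 2.59 in the knock-out and -0.69 to 2.70 in the adult (adjusted p = 0.512 and 0.879). Behind these values stood about 11.2 to 66.2 reads in a flow-through library and 564 to 1560 in a J2 library.

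Ybx2 (ENSMUSG00000018554, chr11:69935805-69941604), the germ-cell Y-box gene, had the smallest spread of the 9. Flow-through values were 40.6, 83 and 67.5 in wild type, 66.3, 66.1 and 52.9 in the knock-out, and 138 and 154 in the adult. Both adult flow-through libraries lay above all 6 P18 ones, and the wild-type and knock-out values overlapped. The adult minus wild-type P18 difference in the flow-through was 1.24 ± 0.47 log2 units (unadjusted p = 0.0248, limma adjusted p = 0.315). It fell to 0.58 when libraries were scaled to a common total, while the median of all genes also fell, from 0.275 to -0.21. J2 values were 139, 76.3 and 189 in wild type, 66.8, 147 and 275 in the knock-out, and 279 and 111 in the adult. There the groups overlapped, with an adult minus P18 difference of 0.48 ± 0.79 (adjusted p = 0.855). The knock-out minus wild-type difference was 0.01 ± 0.42 in the flow-through (95% confidence interval -0.93 to 0.94) and 0.14 ± 0.71 in J2 (-1.44 to 1.73). Slc2a4, the insulin-responsive glucose transporter gene, lies 682 bases beyond Ybx2.

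Ybx3 (ENSMUSG00000030189, chr6:131364858-131388450), also called MSY4 and a partner of YBX2 in stored particles, came closest to the threshold. Its values were 25, 83.9 and 9.11 in wild-type flow-through and 618, 252 and 167 in wild-type J2. All 3 wild-type J2 libraries lay above all 3 flow-through libraries, by a log2 difference of 3.40 ± 0.84 (95% confidence interval 1.65 to 5.15, unadjusted p = 0.000649, limma adjusted p = 0.0623). In the knock-out, flow-through values of 49.5, 52.1 and 44.2 overlapped J2 values of 123, 156 and 37, with a difference of 0.87 ± 0.84 (adjusted p = 0.735). In the adult, flow-through values of 56.4 and 162 overlapped J2 values of 247 and 110, with a difference of 0.78 ± 1.02 (adjusted p = 0.943). The wild-type difference passed the threshold when only genes reaching 50 were tested (adjusted p = 0.0178), when wild-type flow-through replicate 2, the highest of the 3, was left out (4.20, adjusted p = 0.0323), and with a common total. Over the other alternatives that differ from the main fit, its limma adjusted p was 0.063 to 0.22. In the flow-through, wild-type Ybx3 rested on few reads, roughly 1.1 in replicate 3, where the worth of 1 read is uncertain. A small nucleolar RNA gene, Gm22362, lies inside Ybx3 and was listed at 0 in all 6 wild-type P18 libraries.

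Within J2, the knock-out values of Ybx3 (37 to 156) lay below the wild-type values (167 to 618) without overlap. The difference was -1.72 ± 0.75 (unadjusted p = 0.0469, limma adjusted p = 0.756). Whether the J2 against flow-through difference itself differed between genotypes was tested as an interaction, which was -2.53 ± 1.18 (unadjusted p = 0.0455, adjusted p = 0.993). The corresponding interaction with age was -2.62 ± 1.32 (unadjusted p = 0.0618, adjusted p = 0.931). The 8 spermatocyte markers summed to 902 to 1587 in wild-type J2 and 576 to 919 in knock-out J2. In the flow-through they summed to 399 to 657 and 456 to 875. The 7 markers of spermatogonia went the other way in J2 (35.4 to 81.7 in wild type, 117 to 171 in the knock-out). The part of either set in the Ybx3 values was not tested.

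Dazl (ENSMUSG00000010592, chr17:50279393-50293620), which acts from the early germ cell through meiosis, had a larger pooled within-group SD than the Y-box genes. This came largely from the adult J2 libraries (SD 4.99 on the log2 scale). In the other groups its SD was 0.43 to 1.20. Flow-through values were 19.8, 65 and 103 in wild type, 60, 95.3 and 111 in the knock-out, and 35.6 and 20.1 in the adult. Wild-type J2 libraries stood at 14, 39.2 and 35.7 and knock-out J2 libraries at 84.7, 101 and 153, so that every knock-out J2 library lay above every wild-type one. That difference was 1.97 log2 units (95% confidence interval -1.38 to 5.33, limma adjusted p = 0.898). The 7 markers of spermatogonia, cells in which Dazl is already active, summed to 117 to 171 in knock-out J2. In wild-type J2 the sum was 35.4 to 81.7, and Gfra1 was at 0 in both. In the flow-through the sums overlapped (29.3 to 276 in the knock-out, 36.6 to 127 in wild type). The 8 spermatocyte markers leaned the other way in J2 (576 to 919 and 902 to 1587). The part of either set in the Dazl difference was not tested. The 2 adult J2 libraries stood at 0 and 132. Leaving out the library at 0 turned the adult J2 minus flow-through difference from -1.27 to 2.26 and the adult minus wild-type P18 difference in J2 from -1.29 to 2.24. Leaving out the other one gave -4.81 for the latter, with the library at 0 as the only adult J2 library. The sign therefore rests on which adult library is kept.

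Boll (ENSMUSG00000025977, chr1:55243566-55363789), the other DAZ-family gene, was higher in the adult than in wild-type P18 libraries without overlap in both fractions. Adult libraries stood at 85.3 and 38.2 (flow-through) and at 33 and 92.5 (J2). Those of wild-type P18 testis were at 2.82, 37.8 and 33.4 (flow-through) and at 1.14, 24.1 and 15.5 (J2). Differences of 1.76 ± 1.08 in flow-through and 2.55 ± 1.27 in J2 did not pass (limma adjusted p = 0.608 and 0.427). Knock-out libraries overlapped the wild type, with 14.4, 36.9 and 10.7 for the flow-through and 12.7, 47.5 and 41.4 for J2. The gap between the highest P18 and the lowest adult flow-through value was small (37.8 against 38.2). A pseudogene, Gm8292, lies inside Boll.

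Cpeb1 (ENSMUSG00000025586, chr7:81347026-81458001), whose protein binds mRNAs near the tail signal and regulates polyadenylation, was near the floor. It was listed at 0 in 5 of 16 libraries and reached 10 in 4 of them. Those were a wild-type flow-through library (30), 2 knock-out flow-through libraries (28.8 and 68.1) and a knock-out J2 library (38.3). Adult libraries stood at 0 and 1.48 (flow-through) and 0.466 and 4.18 (J2), and wild-type J2 libraries at 0, 0 and 0.944. It was not tested within J2, where it failed the filter. In the flow-through the knock-out minus wild-type difference was 1.13 ± 1.80 (95% confidence interval -2.89 to 5.15, limma adjusted p = 0.923).

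Pabpc1 (ENSMUSG00000022283, chr15:36595658-36609581), the general cytoplasmic poly(A)-binding protein gene, was present in all 16 libraries. Flow-through values were 106, 373 and 296 in wild type, 242, 319 and 359 in the knock-out, and 136 and 476 in the adult. J2 values were 398, 268 and 200 in wild type, 533, 265 and 161 in the knock-out, and 311 and 552 in the adult. Every pair of groups compared overlapped. The J2 minus flow-through difference was 0.29 ± 0.66 in wild type, -0.09 ± 0.66 in the knock-out and 0.70 ± 0.81 in the adult. With the libraries scaled to a common total, the knock-out value became 4.07, and the median of all genes moved from -0.151 to 2.16. Ybx1 and Ybx2 moved in the same way in the knock-out, from 1.20 to 5.31 and from 1.17 to 5.12. Genes at or near 0 move little on log2(value + 1), so the distance of Pabpc1 from that median depends on its level.

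Pabpc2 (ENSMUSG00000051732), an intronless retrogene relative of Pabpc1, was also present in every library. Its flow-through values were 31.2, 91.9 and 55.5 in wild type, 24.1, 34.9 and 27.4 in the knock-out, and 56.8 in both adult libraries. The knock-out and wild type overlapped, with a difference of -0.91 ± 0.53 (95% confidence interval -2.09 to 0.27, limma adjusted p = 0.846). J2 values were 35.9, 131 and 40.9 in wild type, 43.4, 89.1 and 20.8 in the knock-out, and 81.3 and 156 in the adult. The adult J2 libraries lay above the adult flow-through ones, by 0.97 ± 0.94 (adjusted p = 0.909). Because Pabpc2 and Pabpc1 are close copies, reads that match both could have been shared between them by the authors' quantification.

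Elavl1 (ENSMUSG00000040028, chr8:4284781-4325140) had low flow-through values of 7.83, 13 and 30.8 in wild type, 18, 39.1 and 40.8 in the knock-out, and 5.47 and 22.9 in the adult. The J2 values ranged from 3.81 to 83.1 for wild type and from 8.92 to 78.2 for the knock-out, and were 59.6 and 61.6 in the adult. The 2 adult J2 libraries were nearly equal and lay above both adult flow-through libraries, by 2.31 ± 1.29 log2 units (limma adjusted p = 0.802). Ccl25, a chemokine gene on the opposite strand, begins 65 bases from the annotated start of Elavl1.

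The first question of the design is which transcripts were recovered with J2 rather than left in the flow-through. In wild-type P18 testis, 86 of 9526 genes passed the threshold (0.903%), 50 of them higher in J2 and 36 lower, and 0 of the 9 members did. In the knock-out 34 genes passed (0.357%) and in the adult 30 (0.315%), again with 0 members. At an unadjusted p under 0.05, limma gave 1325, 1094 and 633 genes in the 3 conditions, and 1 member, Ybx3 in wild type. The median difference of the 9 members was 0.29, 0.59 and 0.78 log2 units, with 6, 7 and 7 of them above 0, beside medians of -0.046, -0.151 and 0.049 over all genes tested. Groups did not overlap for 1 member in wild type, 2 in the knock-out (Ybx1 and Ybx2) and 3 in the adult (Ybx1, Pabpc2 and Elavl1), all higher in J2. Some gaps between the lowest J2 and the highest flow-through value were small. They were 66.8 against 66.3 for Ybx2 in the knock-out and 155 against 142 for Ybx1 in the adult. Over all genes tested, 7.08%, 6.95% and 18.4% were higher in J2 without overlap in the 3 conditions.

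These differences depend on how the 2 fractions are put on 1 scale. With every library scaled to a common total of its non-mitochondrial genes, the median of all genes moved to 1.87, 2.16 and 2.74 log2 units, and 2575, 2863 and 3471 genes passed (27%, 30.1% and 36.4% of those tested). On that scale 6 members passed in wild type, 8 in the knock-out and 7 in the adult, all higher in J2. Ybx3 had the largest of these member differences in wild type (6.93), followed by Ybx2 (4.82) and Ybx1 (4.67). Quantile normalisation and scaling to the 75th percentile gave 0 members in each condition. Because the common total moves nearly all called genes the same way (2562 of 2575 higher in J2 in wild type), it fixes the sign of most members. It also moves genes well above 0 more than genes near 0, on log2(value + 1). Apart from Cpeb1, the members had median percentile ranks of 81.4 to 99.3 among genes that passed the filter. Cpeb1, at 26.0, passed in none of the conditions on that scale. The shares called among genes of like level were not examined.

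**Figure D2:**
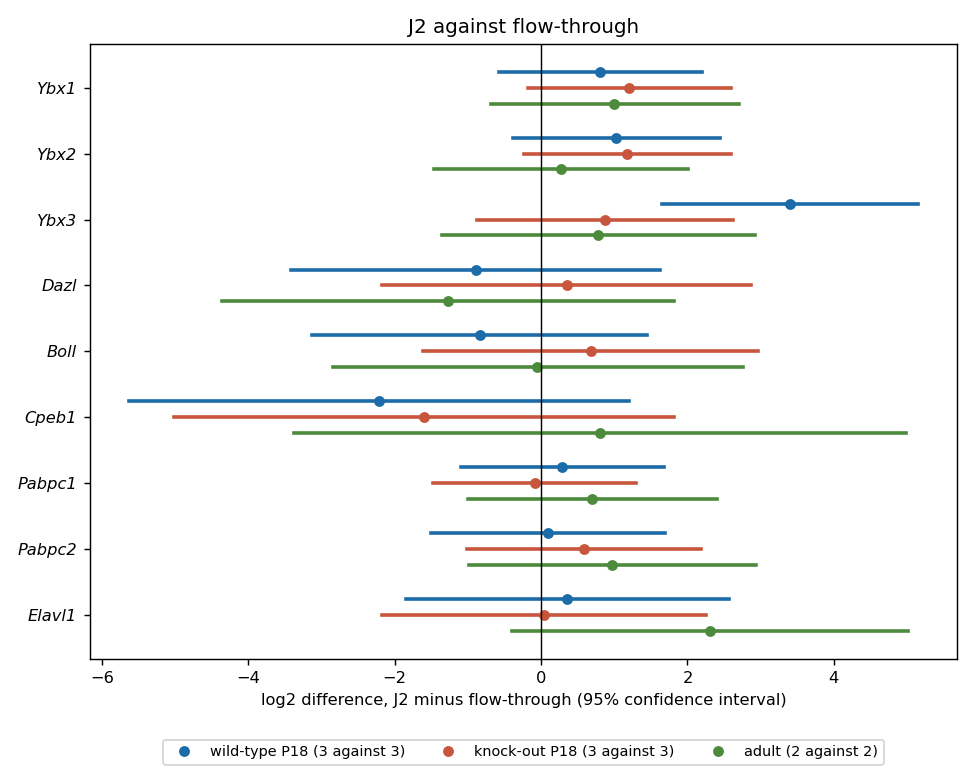
Points are log2 differences, J2 minus flow-through, for each gene on the vertical axis in wild-type P18, knock-out P18 and adult testis; lines are 95% confidence intervals from limma on the deposited scale. Ybx3 in wild type, at 3.40 (1.65 to 5.15), is the 1 interval that does not reach 0.

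The second question is what loss of Dicer, the nuclease that makes microRNAs and small interfering RNAs from double-stranded precursors, did at P18. No gene passed in either fraction: 0 of 6882 genes in J2 and 0 of 7141 in the flow-through (0% each), with 440 and 436 at an unadjusted p under 0.05 by limma. Of the 8 members tested in J2, 6 were above 0 with a median of 0.24, and of the 9 in flow-through, 7 with a median of 0.41, beside medians of 0.132 and 0.332 over all genes. Ybx3 (lower) and Dazl (higher) did not overlap between genotypes in J2, and no member was without overlap in the flow-through, beside 9.9% and 10.6% of all genes tested in either direction. The genotype by fraction interaction was passed by 0 of 9526 genes (0%), with 455 at an unadjusted p under 0.05. Confidence intervals for the better measured genes were still wide: in J2, -0.87 to 1.53 for Ybx1 and -1.31 to 1.37 for Pabpc1.

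**Figure D3:**
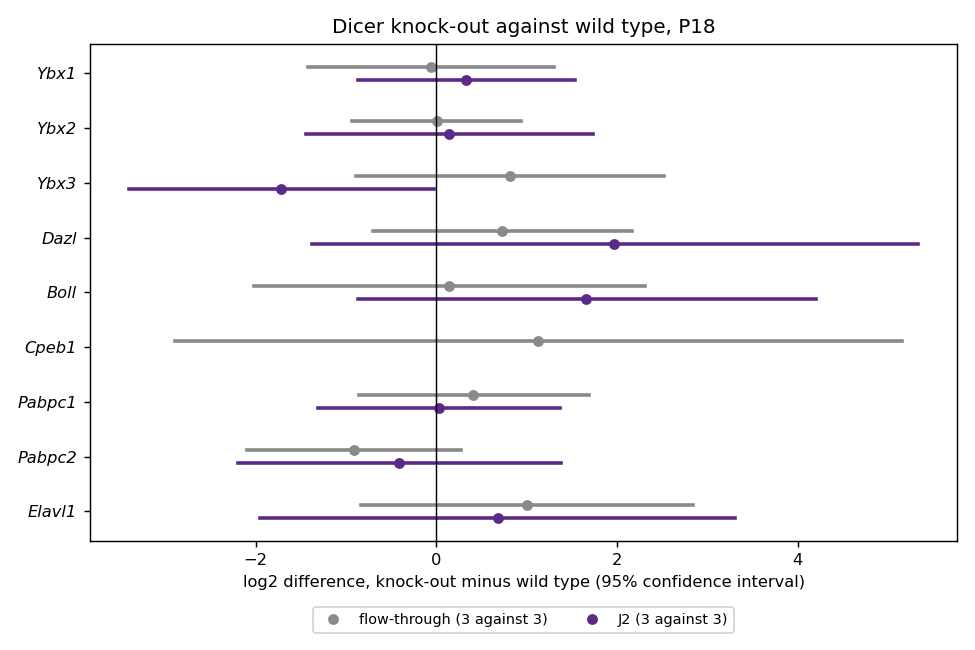
Points are log2 differences, knock-out minus wild type at P18, in the flow-through and the J2 fraction; lines are 95% confidence intervals from limma. The J2 interval of Ybx3 (-3.40 to -0.03) ends just below 0, all the others include 0, and Cpeb1 has no J2 value because it failed the filter there.

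The third comparison sets adult against wild-type P18 testis, before and after spermatids accumulate. In J2, 376 of 6882 genes passed (5.46%), 349 higher in the adult, and in the flow-through 231 of 7141 (3.23%), 220 higher. Of the 8 members tested in J2 and the 9 in flow-through, 0 were among them (0 in each by limma, with 0 and 1 at an unadjusted p under 0.05). The median member difference was 0.53 in J2 and 0.06 in flow-through, beside 0.332 and 0.275 over all genes. The age by fraction interaction was passed by 0 of 9526 genes (0%), with 514 at an unadjusted p under 0.05. Adult values lay above P18 without overlap for Boll in J2 and for Boll and Ybx2 in flow-through, beside 18.7% and 16.6% of all genes tested.

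The mRNAs that such proteins are known to hold did differ between the ages. Of 14 mRNAs described as stored in spermatids, 13 could be tested in each fraction, and 11 rose in adult J2 and 10 in adult flow-through, with median differences of 6.63 and 6.75 log2 units. With no filter on low values 0 passed in either fraction, and leaving out adult flow-through replicate 1 or 2, with the same genes tested, left 4 or 7 in flow-through. This list was taken up with its behaviour in these libraries known, and most of its genes met the filter through the adult libraries alone. Groups listed at 0 throughout also add no spread, so SEs and adjusted p-values of such genes can be too small. The count and the p-values below are therefore a description. For genes listed at 0 throughout wild-type P18 testis the size of a log2 difference, and with it the median, rests on the value of 1 added before taking logs. Prm1, which encodes the protamine that replaces histones in the sperm nucleus, stood at 0 in all 6 P18 J2 libraries and at 411 and 319 in adult J2. Its flow-through values were 0, 2.44 and 0 in wild-type P18 and 524 and 855 in the adult, a rise of 8.79 ± 1.17 log2 units (limma adjusted p = 0.00242). Tnp1, a transition protein gene that precedes the protamines, went from 0, 0 and 1.49 in wild-type J2 to 289 and 172 in adult J2. Its rise in J2 was 7.37 ± 1.06 (adjusted p = 0.00129), and in flow-through it was listed at 0 in all 6 P18 libraries against 176 and 95.2 in the adult (adjusted p = 0.00242). Both fractions therefore held these mRNAs in the adult. Akap4, a protein of the sperm tail sheath, rose in J2 (adjusted p = 0.000445), where the adult libraries stood at 291 and 737 and all P18 ones were listed at 0. Prm2, Tnp2, Odf1, Gapdhs, Acrv1, Spata18 and Tssk6 rose in both fractions, with adjusted p of 0.000215 to 0.000774 in J2 and 0.00242 to 0.0206 in flow-through. Smcp, a protein of the sperm mitochondrial capsule, rose in J2 by 8.09 (adjusted p = 0.000799) and differed by 4.43 in flow-through (adjusted p = 0.12). Odf2 and Pgk2 were higher in the adult by 0.83 and 4.09 in J2 (adjusted p = 0.744 and 0.0591) and by 2.83 and 3.42 in flow-through (adjusted p = 0.158 and 0.359). The summed spermatid markers given above, 7 of the 8 belonging to this same list, moved with these rises. Red cell markers moved the other way, summing to 78.1 to 445 in P18 libraries and 5.79 to 18.2 in adult ones. In J2, summed markers were 73.3 to 156 in wild-type P18 and 18.3 to 20.4 in the adult for peritubular myoid cells, 35.4 to 81.7 and 11.4 to 17.2 for spermatogonia, and 260 to 870 and 102 to 267 for Sertoli cells. In flow-through the wild-type P18 and adult sums of these 3 sets overlapped. They were 148 to 450 and 59.3 to 283 for peritubular myoid cells, and 36.6 to 127 and 7.71 to 44.5 for spermatogonia. For Sertoli cells they were 193 to 291 and 114 to 319. The part of cell composition in these differences was not tested.

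**Figure D4:**
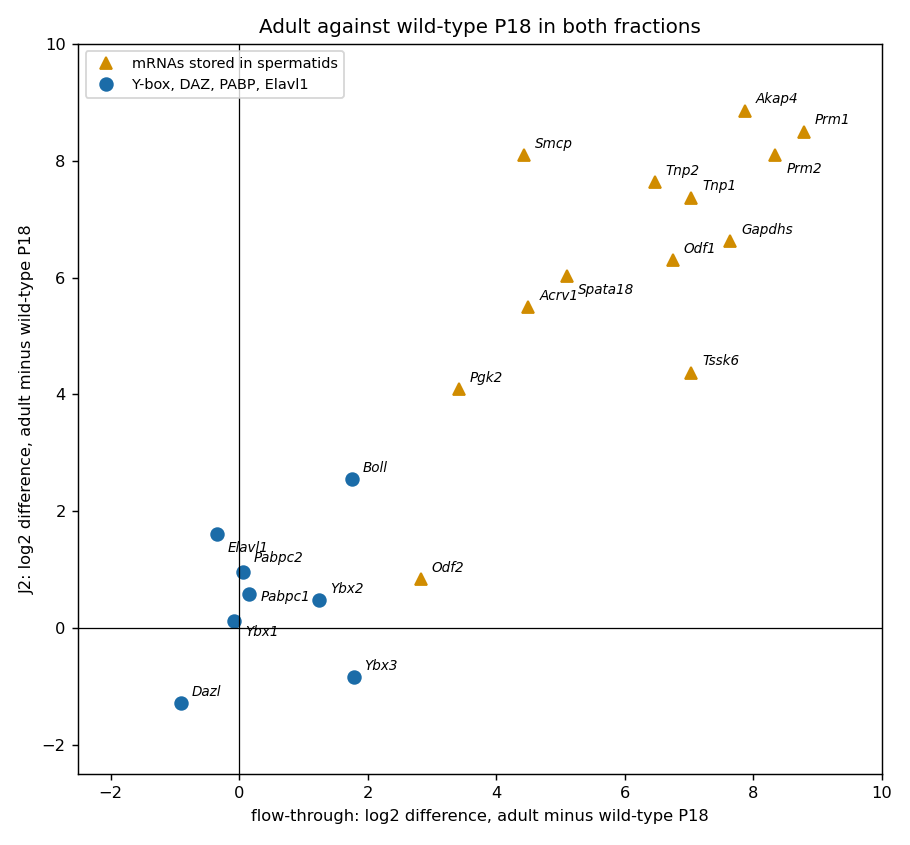
Each symbol is 1 gene, placed by its log2 difference, adult minus wild-type P18, in the flow-through (horizontal) and in J2 (vertical); circles are the 8 members tested in both fractions and triangles the 13 stored mRNAs. The members lie between -1.29 and 2.55 in J2, and the stored mRNAs reach 8.86, on the log2(value + 1) scale.

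The other genes that act with the members did not pass in any comparison, with 1 exception. The share of all genes tested at an unadjusted p under 0.05 by limma ran from 455 of 9526 to 968 of 6882 per comparison. Among 22 relatives in the Y-box, poly(A)-binding, CPEB, ELAVL, PUF and NANOS families, 8 or 9 were tested per comparison and 0 passed by limma, with 0 or 1 at an unadjusted p under 0.05. The testis poly(A)-binding gene Pabpc6 ranged from 7.65 to 159 and the PUF gene Pum2 from 3.18 to 104. Of 28 genes for tail enzymes and partners of poly(A)-binding proteins, 24 to 26 were tested. Up to 8 of them had an unadjusted p under 0.05 by limma, and 1 passed the threshold. That was Paip2b, an inhibitor of poly(A)-binding proteins, which rose in adult flow-through (0, 1.14 and 0 in wild-type P18 against 55 and 50.1, a difference of 5.38 ± 1.14, limma adjusted p = 0.0297). In the flow-through it reached 10 only in the adult libraries. The call was lost without wild-type flow-through replicate 1 or 3 (adjusted p = 0.0978 and 0.0989) and with all 16 libraries in the fit (0.242), and in J2 the adult values were 0.883 and 9.74 against 1.53, 536 and 3.05. In the same list Cnot1, the scaffold of the deadenylase complex, ranged from 27 to 441, Papolb, the testis poly(A) polymerase, from 7.84 to 267, and Larp1 from 6.05 to 115. Neither the 14 cap-binding and initiation factors (10 or 11 tested) nor the 36 germ granule and storage proteins (26 to 33 tested) had a gene past the threshold (0 by limma, with up to 3 and up to 6 at an unadjusted p under 0.05). Eif4g2, an eIF4G relative, ranged from 41.6 to 625, Eif4a2 from 21.6 to 178 and Eif4a1 from 9.04 to 285. Ddx25, a testis helicase needed for spermatid development, ranged from 32.5 to 229, Qk from 38.7 to 163 and Caprin1 from 22.5 to 352. Of 7 mRNAs described as targets of DAZL or CPEB1, 5 or 6 were tested and 0 passed by limma, with up to 2 at an unadjusted p under 0.05. Ddx4, the germ-cell helicase, ranged from 16.2 to 176, the synaptonemal complex gene Sycp1 from 0 to 453 and Tpx2 from 2.12 to 111.

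The genes whose values moved most like those of Pabpc1, Ybx1 and Ybx2 over the 16 libraries, after removing the mean of each fraction, are given as a description. For Pabpc1 they were Thoc2 (Pearson r = 0.87, Spearman rho = 0.86), Hormad1 (0.84 and 0.75) and Lrrc34 (0.84 and 0.71). For Ybx1 they were Mrpl51 (0.79 and 0.83), Ift43 (0.76 and 0.87) and Tnk2 (0.75 and 0.77). For Ybx2 they were Tmem205 (0.82 and 0.67), Inip (0.80 and 0.76) and Cdkl3 (0.77 and 0.70). Each of these 9 genes was listed at 0 in at least 1 library and reached 16.2 to 100 at its highest, and the points share libraries and depth, so the correlations carry no test.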

How the data were processed

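RNA bound by J2 and its flow-through were sequenced from mouse testis, 16 libraries in 6 groups, with a strand-specific kit per the labels' protocols. The deposited table holds the authors' normalised counts per Ensembl gene, a signal not restricted to whole reads. FastQC, Trimmomatic, Salmon, DESeq2 and mm10 are named per the submitters' processing notes, with no versions. Groups were taken from the labels. Of 35920 identifiers, 35446 matched a symbol. Tests used limma 3.58.1 in R 4.3.3 on log2(value + 1) with a mean trend, two-sided, for genes reaching 10 in at least 2 libraries fitted, with Benjamini-Hochberg adjustment and a threshold of 0.05. Comparisons of fractions and interactions used all 16 libraries, and comparisons within a fraction its 8 libraries. The test was checked on simulated data. Depth was approximated from a value shared by several genes and its multiples, of which flow-through libraries gave only 1 to 3. Alternatives were quantile normalisation, common total, 75th percentile scaling, a pseudocount of 10, no filter, a filter at 50, array weights, other sets of libraries in the fit, a block for header codes and leaving out each library. The 9 genes and all lists were chosen with earlier results of these data known. Named genes were the 9 members, each other list's genes past the threshold (otherwise its 3 highest by mean log2 value), the 3 genes most correlated with each of the 3 highest members, and Dicer1; 1 gene that this rule names is not reported here. A second header line gives 8 codes, each shared by 1 flow-through and 1 J2 library. Deviations from group means of libraries with the same code correlated at -0.026 to 0.031, so the codes were not used to pair them in the main tests. Promoter sequences are RefSeq's on GRCm38.p6. Protein sequences and transcript lengths were not used here, so levels were not compared between genes.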

Additional observations from a re-analysis of the deposited data

Results flagged for a closer look

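Dazl was picked out because its J2 minus flow-through difference had opposite signs in the 2 genotypes when libraries sharing a header code were subtracted. In wild-type P18 testis the 3 differences were -0.47, -0.71 and -1.50 log2 units, and in the knock-out they were 0.49, 0.08 and 0.46. Tested over all 16 libraries with limma, the genotype by fraction interaction was 1.24 ± 1.70 (95% confidence interval -2.33 to 4.81, adjusted p = 1). The 2 adult differences were -5.20 and 2.65. What the codes stand for is not given in the sources used here.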

How the results depend on the processing

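Of 156 alternative fits over the 9 comparisons, 150 called 0 of the 9 members, and 1329 of 1353 member values stayed on the same side of the threshold. For comparisons of fractions and interactions, the alternative with all 16 libraries in the fit repeats the main fit and is included in these counts. Common total scaling called 6 members in wild type, 8 in the knock-out and 7 in the adult for J2 against flow-through. That scaling moves genes well above 0 more than genes near 0. It turned Pabpc1 in the knock-out to 4.07 and Boll in the adult to 4.28. The filter at 50 called 1 member, Ybx3, in wild type. Leaving out a library gave 0 to 1 members called in wild type (Ybx3, without flow-through replicate 2). The other fit that called a member, Dazl for adult against P18 in J2, was added after seeing the data. It left 1 adult J2 library, in which Dazl was listed at 0. A further 116 member values changed sign with neither value past the threshold.

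With the replicate block for header codes, limma called 24, 20 and 15 genes and 0 members for J2 against flow-through in wild type, knock-out and adult, against 86, 34 and 30 without it, and 0 genes in both interactions. The codes are not said to mark a shared animal. Numbers of genes called moved widely: leaving out a library gave 27 to 75, 20 to 31 and 11 to 70 for the 3 fraction comparisons, and other settings apart from common total gave 24 to 153, 20 to 121 and 11 to 251. Knock-out against wild type gave at most 2 genes. For the age by fraction interaction, common total called 359 genes, no filter 110, and the fit without adult flow-through replicate 2 called 43. Adult against P18 gave 376 genes in J2 and 231 in flow-through in the main tests and 0 in each with no filter. Leaving out a library gave 18 to 357 and 5 to 253. The lowest counts came without an adult library, with 32 or 18 genes in J2 (5 or 1 higher in the adult) and 5 or 11 in flow-through (0 higher). With the same genes tested these were 335 or 336 and 187 or 212.

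The stored spermatid mRNAs that rose also numbered 0 in each fraction with no filter, where adjusted p-values of those named were 0.0688 to 0.0953 in J2 and 0.0716 to 0.136 in flow-through. Leaving out a library gave 0 to 11 in J2 and 0 to 9 in flow-through. The 0 counts came from dropping either adult library, after which 2 of the 14 genes met the filter in J2 and 3 in flow-through. With the same genes tested, an alternative added after seeing the data, dropping either adult J2 library left 11, and dropping adult flow-through replicate 1 or 2 left 4 or 7. With 1 adult library left, it is assumed to vary like the other groups.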
